A study of Homo sapiens with 6 samples.

Results

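Colo800 is an established human melanoma cell line. It was studied here after knockdown of ETV1, an ETS-family transcription factor, through 3 libraries, out of 6 in the series. The ETV1-sh1 library, the ETV1-sh2 library and the scrambled library (the control hairpin) were chosen by their hairpin and cell-line labels. The scrambled sample's title, COLO800-ETV1shSCR, differs from its column's name in the table, COLO800-shSCR, and they were taken as the same library, on which every difference below rests. Of 17468 genes in the expression table, the 10621 with a mean of at least 1 FPKM over these 3 libraries were analysed. FPKM is a fragment count normalised to transcript length and library size. The other 3 libraries hold the same hairpins in A375, a second melanoma line, and serve only in a last comparison.

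All 3 Colo800 libraries came from cells grown with 10% FBS and carrying a virus-delivered short hairpin RNA, with RNA taken 4 days after infection, per the series' design text. That text also says that infections were duplicated; no source used here says if a column pools 2 infections. The sample labels carry a second, conflicting account. Under treatment, ETV1-sh1 is given as DMSO, ETV1-sh2 as 5 nM trametinib, which inhibits MEK, and scrambled as 1 uM vemurafenib, which inhibits BRAF, and the protocol speaks of siRNA for 48 hours and drug for 8 hours. Hairpin and labelled drug go together in every library, so a hairpin effect and a drug effect cannot be told apart. Groups are called by hairpin below.

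ETV1 belongs to the PEA3 group of ETS factors together with ETV4 and ETV5. These proteins bind DNA at sites with a GGAA core, are stabilised when the ERK kinase pathway is active, and act downstream of KIT and BRAF signals in several tumours. In melanocytes and melanoma, MITF, SOX10 and PAX3 direct the pigment programme, and gains of MITF and of ETV1 have both been described in melanoma.

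The 3 libraries had similar FPKM sums and numbers of genes detected. FPKM is already scaled to library size, so the sums do not show it. FPKM sums lay between 647816 and 710498, and between 10418 and 10682 genes reached 1 FPKM. From the commonest ratio among low values, ETV1-sh1 was read 1.07 times and ETV1-sh2 0.959 times as deeply as scrambled. That ratio held for only 10.3% and 10.5% of the low genes compared, and absolute depth is unknown. The 9 melanocyte markers summed to 986 and 940 FPKM with the ETV1 hairpins, against 1435 FPKM with scrambled, and their part in the results below was not tested. SOX10 was the highest of them, with 562 FPKM with ETV1-sh1 and 549 FPKM with ETV1-sh2, against 712 FPKM with scrambled, while MLANA and TYRP1 were at 0.51 to 1.85 FPKM. CD3E and KRT19 were listed at 0 throughout. Of 8 leukocyte markers, 5 or 6 were under 1 FPKM in each library, the exceptions including CD74 at 397 to 519 FPKM and CD68 at 76.6 to 139 FPKM. Summed keratinocyte markers stayed at 5.67 to 8.63 FPKM and endothelial markers at 1.58 to 2.88 FPKM. Fibroblast markers summed to 52.0 and 78.6 FPKM with the ETV1 hairpins, against 59.7 FPKM with scrambled, most of it FAP at 36.5 and 45.8 FPKM, against 47.3 FPKM. Epithelial markers summed to 10.4 and 37.4 FPKM, against 5.56 FPKM, with MUC1 at 2.11 and 21.6 FPKM, against 2.29 FPKM. Mitochondrially encoded transcripts made up 7.82% of FPKM with ETV1-sh1 and 9.21% with ETV1-sh2, against 6.15% with scrambled. Cytosolic ribosomal protein genes made up 5.14%, 3.38% and 4.23% in that order.

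ETV1 itself (ENSG00000006468) had 54.6 FPKM with ETV1-sh1 and 9.80 FPKM with ETV1-sh2, against 180 FPKM with scrambled. ETV1-sh1 therefore left 30.3% and ETV1-sh2 5.43% of the scrambled level. ETV5 had 60.7 FPKM with ETV1-sh1 and 93.4 FPKM with ETV1-sh2, against 186 FPKM with scrambled, and did not reach 2-fold with ETV1-sh2. ETV4 had 74.5 and 64.5 FPKM with the ETV1 hairpins, against 63.2 FPKM with scrambled. ETV1 was thus more than 2-fold lower with both hairpins, ETV5 with ETV1-sh1 and not ETV1-sh2, and ETV4 with neither.

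With both ETV1 hairpins, 102 genes (0.96% of those tested) stood at least 2-fold above scrambled and 103 genes (0.97%) at least 2-fold below. Folds were taken on log2(FPKM + 1), which understates differences of low genes; with a pseudocount of 0.1 in place of 1, 355 genes passed with both, 218 of them higher. Counted by itself, ETV1-sh1 had 287 genes higher (2.7%) and 445 lower (4.19%), and ETV1-sh2 574 higher (5.4%) and 709 lower (6.68%). A further 18 genes passed 2-fold with both hairpins in opposite directions. Both comparisons use the same scrambled library, so whatever is particular to that library enters both. With the 2 hairpin libraries as the only replication, limma placed no gene past an adjusted p of 0.05 (lowest adjusted p 0.999743), and 301 genes (2.83%) had an unadjusted p under 0.05. The differences below are therefore measured sizes, none of which passed a test across genes.

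**Figure D1:**
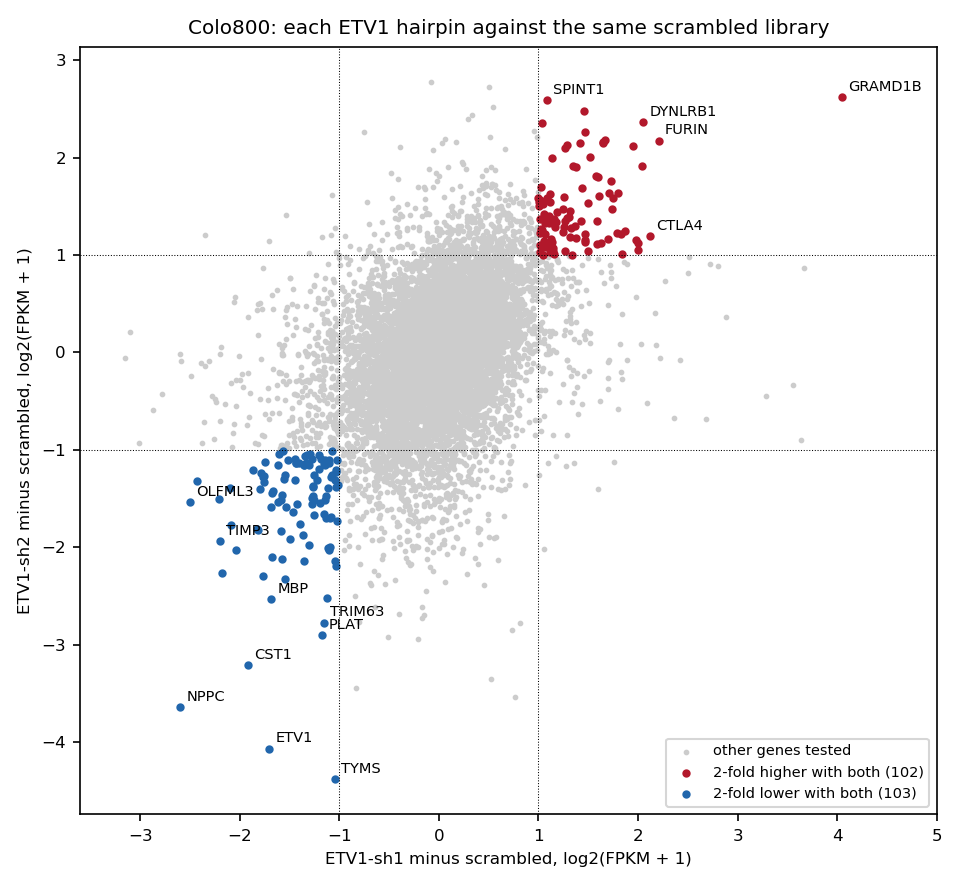
Difference from the scrambled library in log2(FPKM + 1) for each of 10621 genes in Colo800, with ETV1-sh1 on the horizontal and ETV1-sh2 on the vertical axis; dotted lines mark 2-fold. The 102 genes higher with both are red and the 103 lower with both are blue; ETV1, TYMS and NPPC lie lowest and GRAMD1B farthest to the right.

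The 103 lower genes had a median level of 7.71 FPKM with ETV1-sh1 and 8.04 FPKM with ETV1-sh2, against 24.9 FPKM with scrambled. The 102 higher genes had medians of 12.6 and 13.7 FPKM, against 4.87 FPKM with scrambled. Over all genes tested the medians were 17.9 and 18.1 FPKM, against 18.2 FPKM with scrambled. These levels follow in part from the rule, which used them. At the edge of the rule, COL15A1 at -1.01 was the last gene inside on the lower side and GADD45A at -0.99 the first outside; on the higher side these were MIB2 and MAPK8IP2, both at 1.00. ETV1-sh2 was farther from scrambled than ETV1-sh1 for 57 of the 103 lower genes, ETV1 among them, and 61 of the 102 higher genes. Counted by itself over all genes tested, ETV1-sh2 also had more genes past 2-fold (574 higher and 709 lower, against 287 and 445). No relation to the ETV1 level is read from these counts.

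NPPC, the precursor of C-type natriuretic peptide, stood farthest below scrambled by the smaller of its 2 differences. It had 1.98 FPKM with ETV1-sh1 and 0.442 FPKM with ETV1-sh2, against 17.0 FPKM with scrambled, a mean log2 difference of -3.12 ± 0.74 (SD, n = 2 hairpins). The next genes include an inhibitor of matrix proteases and a secreted cysteine protease inhibitor. TIMP3, which blocks metalloproteases and stays bound to matrix, had 183 and 219 FPKM with the ETV1 hairpins, against 844 FPKM with scrambled (-2.07 ± 0.18). CST1, a cystatin, had 2.61 and 0.471 FPKM, against 12.6 FPKM with scrambled; its close relative CST2 had 1.45 and 0.842 FPKM, against 4.85 FPKM, and reads of the pair may be shared. TIMP3 lies within an intron of SYN3, and whether reads were counted by strand is not given.

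PLA1A, a phosphatidylserine-specific phospholipase, had 0.632 and 0.646 FPKM with the ETV1 hairpins, against 5.72 FPKM with scrambled (-2.04 ± 0.01). MYO5A, the myosin that holds melanosomes at the cell edge, had 24.6 and 24.5 FPKM, against 89.4 FPKM with scrambled. MBP, known from myelin, had 69.8 FPKM with ETV1-sh1 and 38.3 FPKM with ETV1-sh2, against 227 FPKM with scrambled (-2.11 ± 0.60). The values of both hairpins lay close together for PLA1A and MYO5A and apart for MBP. GRASP, a scaffold for receptor trafficking, had 6.29 and 6.35 FPKM, against 24.9 FPKM with scrambled.

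Of the other genes among the 15 lowest, PSAT1, the transaminase of serine synthesis, had 12.0 and 8.04 FPKM with the ETV1 hairpins, against 43.4 FPKM with scrambled (-2.03 ± 0.37). RBBP8 (CtIP), which trims broken DNA ends, had 3.22 and 4.27 FPKM, against 17.0 FPKM with scrambled. FAM111B had 3.06 and 2.02 FPKM, against 12.0 FPKM. FBXL13, an F-box protein, had 1.20 and 1.06 FPKM, against 8.94 FPKM with scrambled. ANKS1A, an adaptor of Eph receptors, had 9.89 and 8.11 FPKM, against 31.6 FPKM, and RNF150 had 2.34 and 2.56 FPKM, against 9.72 FPKM. TRIM48, with 0.587 and 0.0929 FPKM, against 3.74 FPKM, belongs to a cluster of near-identical copies, so its value is uncertain.

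On the higher side GRAMD1B, a sterol carrier between plasma membrane and endoplasmic reticulum, stood farthest from scrambled. It had 34.5 FPKM with ETV1-sh1 and 12.2 FPKM with ETV1-sh2, against 1.15 FPKM with scrambled (3.33 ± 1.01). FURIN, the protease that activates precursor proteins in the Golgi, had 177 and 173 FPKM, against 37.6 FPKM with scrambled (2.19 ± 0.02). Its hairpin values were nearly equal, whereas those of GRAMD1B were not. DDR1, a collagen-activated receptor tyrosine kinase, had 314 and 449 FPKM, against 98.3 FPKM with scrambled (1.92 ± 0.36). TMED4, a cargo receptor of the early secretory route, had 181 and 166 FPKM, against 43.4 FPKM.

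Other high genes were of varied function. EFNB2, a ligand of EphB receptors, had 5.04 and 5.18 FPKM with the ETV1 hairpins, against 0.820 FPKM with scrambled. MED19, a Mediator subunit, had 27.4 and 31.0 FPKM, against 6.34 FPKM, and MAPRE3, which tracks microtubule ends, had 25.5 and 36.8 FPKM, against 7.47 FPKM. CLU, a secreted chaperone, had 45.7 and 52.5 FPKM, against 14.4 FPKM with scrambled. DYNLRB1, a dynein light chain with 504 and 627 FPKM, against 121 FPKM, has processed copies in the genome, so its reads may be shared. Others were NIPAL2, KLK6 (a secreted serine protease), C7orf55, HOXC6 and ALDH5A1 (an enzyme of GABA breakdown), all under 12 FPKM with the hairpins except HOXC6, at 25.4 and 22.7 FPKM, against 6.88 FPKM with scrambled. The other 4 had 0.722 to 3.09 FPKM with scrambled.

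**Figure D2:**
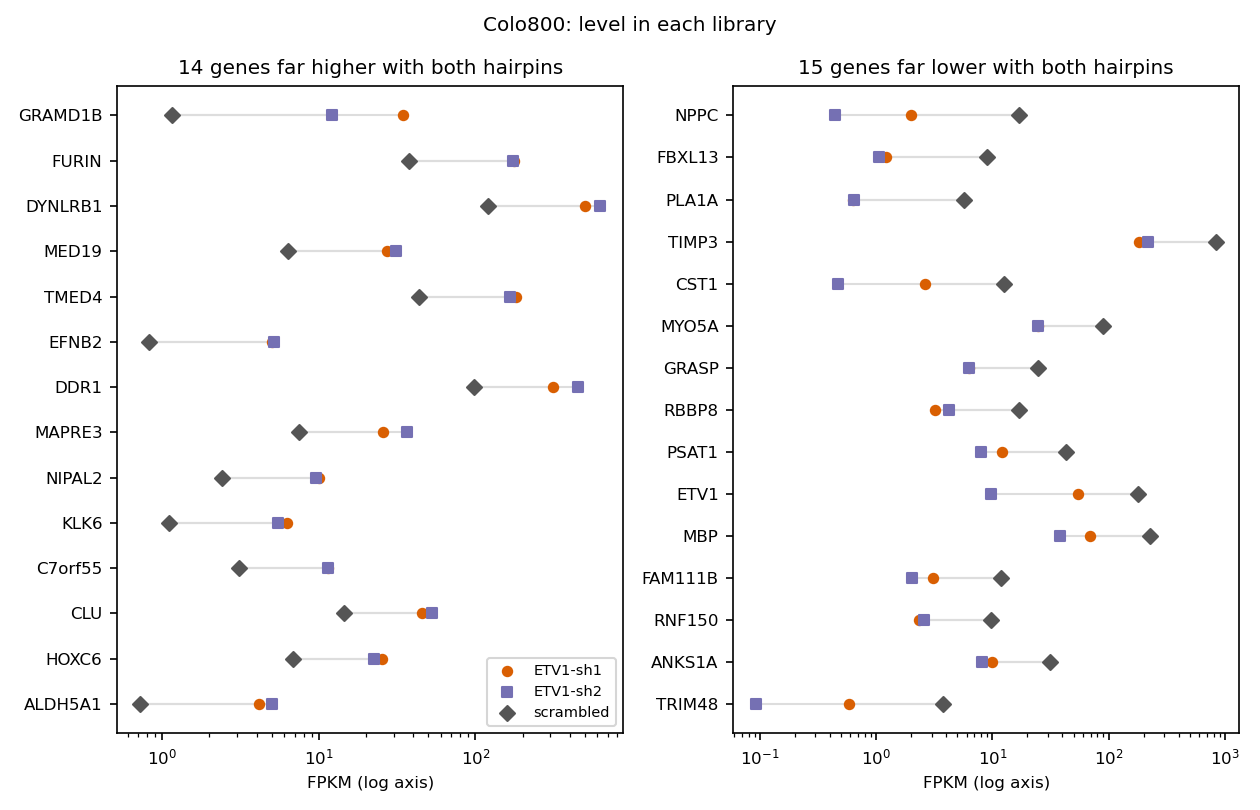
FPKM on a log axis for 14 genes far above (left) and the 15 genes farthest below (right) scrambled with both hairpins, with ETV1-sh1 as circles, ETV1-sh2 as squares and scrambled as diamonds; each point is 1 library. In every row the scrambled point lies outside the pair of hairpin points; PLA1A, MYO5A and GRASP have both hairpin points on top of each other.

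The pigment cell programme was followed through 3 gene lists. Among 31 tested genes of the MITF-high melanoma state, 5 (16.1%) were at least 2-fold lower with both hairpins and 0 higher, against 0.97% and 0.96% of all genes. The list had a median difference of -0.45 (ETV1-sh1) and -0.96 (ETV1-sh2), against 0.02 and 0.04 over all genes tested. Counting each hairpin by itself, 15 of the 31 were 2-fold lower with ETV1-sh2 (48.4%, against 6.68% of all genes) and 8 with ETV1-sh1 (25.8%, against 4.19%). The 5 were PLA1A (above), TRIM63, HMCN1, GPM6B and BEST1. Of these, PLA1A and BEST1 passed the filter only through their scrambled value. The list was also written with earlier results of these data known, so its shares are a description and not a test. TRIM63, a ubiquitin ligase known from muscle that is also an MITF target in melanoma, had 3.03 FPKM with ETV1-sh1 and 0.314 FPKM with ETV1-sh2, against 7.99 FPKM with scrambled. HMCN1, a matrix immunoglobulin-domain protein, had 12.6 and 9.17 FPKM, against 37.3 FPKM with scrambled. GPM6B, a proteolipid of glia and melanocytes, had 3.50 and 4.10 FPKM, against 9.92 FPKM, and BEST1, a chloride channel, had 1.04 and 0.812 FPKM, against 3.18 FPKM.

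MITF itself had 91.5 FPKM with ETV1-sh1 and 38.4 FPKM with ETV1-sh2, against 116 FPKM with scrambled. The ETV1-sh1 value was near scrambled and the ETV1-sh2 value more than 2-fold below it. Several genes of the MITF-high state were split likewise, although with 1 library a hairpin the gap between hairpins was not tested. BCL2A1, a survival gene of the BCL2 family, had 49.1 FPKM with ETV1-sh1 and 8.35 FPKM with ETV1-sh2, against 47.0 FPKM with scrambled. CDK2, a cell-cycle kinase under MITF control in melanocytes, had 148 and 25.9 FPKM, against 115 FPKM. PPARGC1A, a coactivator of mitochondrial genes, had 11.5 and 2.38 FPKM, against 16.1 FPKM. MET, IRF4, ACP5, SEMA6A and DAPK1 were likewise 2-fold lower with ETV1-sh2 and not with ETV1-sh1. Conversely S100B had 83.9 FPKM with ETV1-sh1 and 160 FPKM with ETV1-sh2, against 305 FPKM with scrambled, past 2-fold with ETV1-sh1 only.

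Of 26 tested melanosome and pigment genes, 2 (7.69%) were lower with both hairpins and 0 higher, against 0.97% and 0.96% of all genes. They were MYO5A (above) and SLC24A5, an ion exchanger of the melanosome that influences skin colour, with 14.7 and 17.1 FPKM, against 38.6 FPKM with scrambled. The enzymes of melanin synthesis were not 2-fold lower with both. TYR, the rate-limiting enzyme, had 84.9 FPKM with ETV1-sh1 and 14.8 FPKM with ETV1-sh2, against 34.4 FPKM with scrambled, above it with the first and below it with the second. DCT had 70.8 and 82.1 FPKM, against 125 FPKM. Transport genes varied: HPS5 had 13.9 and 15.6 FPKM, against 30.4 FPKM, just short of 2-fold with ETV1-sh2, while RAB27A had 12.5 and 19.9 FPKM, against 15.1 FPKM.

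Among 16 melanocyte lineage transcription factors, LEF1 and SNAI2 (12.5%) were lower with both hairpins and 0 were higher, against 0.97% and 0.96% of all genes. LEF1, the nuclear partner of beta-catenin, had 125 and 65.9 FPKM with the ETV1 hairpins, against 267 FPKM with scrambled. SNAI2 (Slug), which mouse melanoblasts need, had 15.3 and 20.9 FPKM, against 54.0 FPKM with scrambled. PAX3 had 22.8 and 21.2 FPKM, against 24.8 FPKM. Of 20 Schwann and neural genes, MBP and GPM6B were lower with both (10%, against 0.97% of all genes), and 0 were higher. Others in that list differed between hairpins: PMP22 had 33.3 FPKM with ETV1-sh1 and 166 FPKM with ETV1-sh2, against 250 FPKM with scrambled, and SYP had 24.9 and 3.53 FPKM, against 2.51 FPKM.

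**Figure D3:**
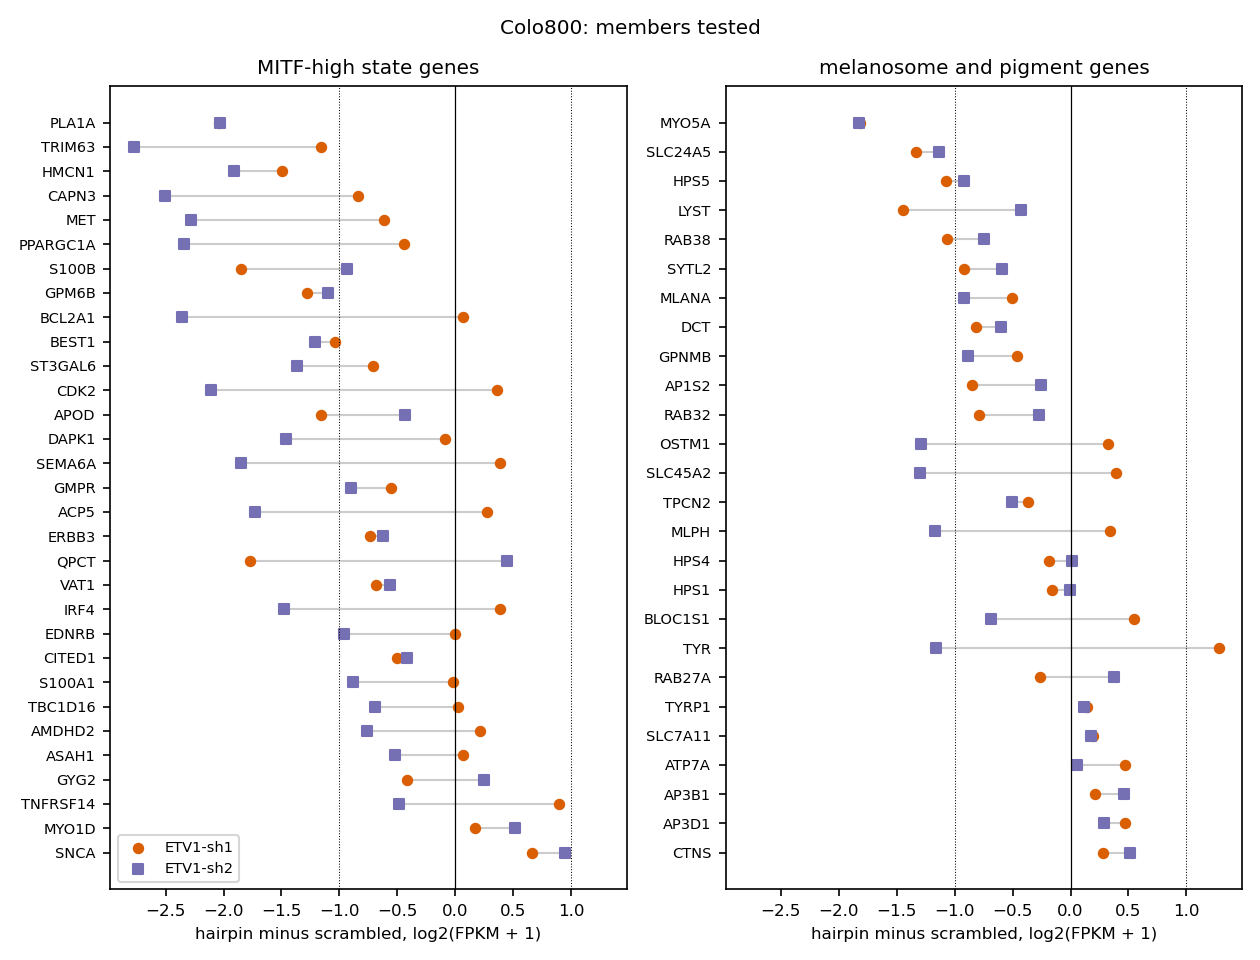
Difference from scrambled in log2(FPKM + 1) for every tested member of the MITF-high list (31 genes, left) and the melanosome list (26 genes, right), with ETV1-sh1 as circles and ETV1-sh2 as squares; dotted lines mark 2-fold. The bars between points are short for PLA1A, MYO5A, SLC24A5, GPM6B and BEST1 and long for TYR, BCL2A1, CDK2 and SEMA6A.

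Upstream sequences are shown for 3 lower pigment-cell genes, TRIM63, SLC24A5 and PLA1A, because their RefSeq promoter windows (GRCh38.p14) hold the letters CATGTG, an E-box that MITF can bind. Capitals mark those letters on either strand. Each run is the 250 bases before the gene's start, 5′ to 3′ on the gene's strand.
TRIM63, chr1:26067631-26067880, minus strand: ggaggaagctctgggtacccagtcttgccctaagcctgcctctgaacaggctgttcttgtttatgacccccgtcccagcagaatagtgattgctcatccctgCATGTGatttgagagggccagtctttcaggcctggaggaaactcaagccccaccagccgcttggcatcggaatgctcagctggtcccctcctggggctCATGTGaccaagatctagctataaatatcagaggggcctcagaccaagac
SLC24A5, chr15:48120740-48120989, plus strand: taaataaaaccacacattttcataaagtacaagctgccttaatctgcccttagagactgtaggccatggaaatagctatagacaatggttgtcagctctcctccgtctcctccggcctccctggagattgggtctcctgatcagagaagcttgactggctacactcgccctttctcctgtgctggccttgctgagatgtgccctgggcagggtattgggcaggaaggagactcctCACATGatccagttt
PLA1A, second listed start, chr3:119600021-119600270, plus strand: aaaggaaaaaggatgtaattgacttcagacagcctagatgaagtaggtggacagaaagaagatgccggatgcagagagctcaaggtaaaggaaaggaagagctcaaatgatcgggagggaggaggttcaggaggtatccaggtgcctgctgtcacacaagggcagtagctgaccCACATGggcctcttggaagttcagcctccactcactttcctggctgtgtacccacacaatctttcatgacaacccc
The match begins 148 and 50 bases before the start in TRIM63, 15 bases before it in SLC24A5 and 76 bases before it in PLA1A. MYO5A and the other listed start of PLA1A have no such match in their windows. That other start of PLA1A has a palindromic E-box, CACGTG, at -61 from it, and GPM6B has CACGTG at 28 from its start. No CATGTG was found for HMCN1, GPM6B or BEST1, which were also lower with both hairpins.

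Such matches were counted over all the shared genes. In windows of 300 bases (250 before and 50 after the start), CATGTG on either strand was in 9 of 104 windows of the lower genes (8.65%) and 13 of 119 of the higher genes (10.9%), against 7.36% of the windows of all genes tested and 11.1% of all RefSeq windows. Of the 205 genes, 147 had a window, some more than 1. An ETS-type sequence, CCGGAAGT, was in 2.88% of lower and 3.36% of higher windows, against 7.44% for all genes tested and 4.14% of all windows. The AP-1 letters TGACTCA were in 1.92% and 6.72%, against 3.59% and 4.95%. For the palindrome CACGTG the shares were 10.6% and 4.2%, against 9.49% and 7.26%. The 4 searches were made separately on both strands, so a window can count for more than 1 of them.

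Cell-cycle genes were lower mainly with ETV1-sh2. Of 33 DNA replication and nucleotide supply genes, 24 were 2-fold lower with ETV1-sh2 (72.7%, against 6.68% of all genes) and 4 with ETV1-sh1 (12.1%, against 4.19%). The list had medians of -0.29 (ETV1-sh1) and -1.29 (ETV1-sh2). The 4 lower with both were RRM2, TYMS, UHRF1 and GINS4. RRM2, the small subunit of ribonucleotide reductase, had 220 and 138 FPKM with the ETV1 hairpins, against 544 FPKM with scrambled. TYMS, which makes thymidylate, had 44.8 FPKM with ETV1-sh1 and 3.53 FPKM with ETV1-sh2, against 93.6 FPKM with scrambled; among genes lower with both it showed the widest gap between hairpins. MCM10, a replication initiation factor, had 14.8 and 3.87 FPKM, against 24.4 FPKM, past 2-fold with ETV1-sh2 and not with ETV1-sh1.

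In the mitosis list, 27 of 32 genes (84.4%) were below scrambled with both hairpins, against 29.3% of all genes (34.2% were above it). TOP2A alone passed 2-fold with both (3.12%, against 0.97% of all genes). TOP2A, the DNA topoisomerase of dividing cells, had 17.7 and 26.8 FPKM, against 56.0 FPKM with scrambled. MKI67, the Ki-67 proliferation antigen, had 33.3 and 25.0 FPKM, against 49.3 FPKM. In bulk RNA, fewer cells in division and less RNA per such cell cannot be told apart. Of 21 G1 regulators, CCND1 and CCNE2 were lower with both (9.52%, against 0.97% of all genes). CCND1 (cyclin D1) had 167 and 139 FPKM, against 346 FPKM with scrambled, and CCNE2 (cyclin E2) had 3.99 and 6.002 FPKM, against 16.04 FPKM. MYC had 38.4 and 12.4 FPKM, against 52.7 FPKM.

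CCND1 also belongs to 32 genes that follow ERK signalling, where it and HMGA2 were the 2 lower with both (6.25%, against 0.97% of all genes). HMGA2, a chromatin protein, had 159 and 124 FPKM, against 365 FPKM with scrambled. The list's medians were -0.38 and -0.44. DUSP6, the ERK phosphatase commonly read as a sign of ERK activity, had 95.9 and 138 FPKM, against 156 FPKM. SPRY4, a feedback inhibitor, had 281 and 174 FPKM, against 516 FPKM. EGR1 stood the other way, with 149 and 265 FPKM, against 83.0 FPKM. The labelled MEK and BRAF inhibitors act on this same pathway, and their part in these values cannot be told apart.

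Metabolic lists also held several lower genes. Of 19 serine and folate one-carbon genes, 4 (21.1%) were lower with both and 0 higher, against 0.97% and 0.96% of all genes. The 4 were PSAT1, GLDC, MTHFD1 and TYMS, which is also counted in the replication list. GLDC, the glycine decarboxylase, had 3.31 and 3.29 FPKM with the ETV1 hairpins, against 8.25 FPKM with scrambled, and MTHFD1 had 19.4 and 20.3 FPKM, against 41.9 FPKM. PHGDH, the first enzyme of serine synthesis, had 172 and 105 FPKM, against 203 FPKM, short of 2-fold with either hairpin. Of 30 glycolysis and hypoxia genes, 4 were 2-fold lower with both (13.3%, against 0.97% of all genes), and 22 were below scrambled with both (73.3%, against 29.3%). HK2 (hexokinase) had 27.3 and 17.6 FPKM, against 59.4 FPKM with scrambled. PFKFB3, which activates phosphofructokinase, had 23.5 and 37.7 FPKM, against 88.6 FPKM. NDRG1 had 330 and 289 FPKM, against 694 FPKM, and BNIP3, a mitophagy receptor induced by hypoxia, had 20.3 and 30.2 FPKM, against 72.3 FPKM. GAPDH had 4480 and 3642 FPKM, against 4331 FPKM.

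Secreted and surface proteins went both ways. Of 23 matrix proteases and inhibitors, FURIN was higher with both (4.35%, against 0.96% of all genes), and TIMP3, MMP16 and PLAT were lower (13%, against 0.97%). MMP16, a membrane metalloprotease, had 9.94 and 13.4 FPKM, against 37.1 FPKM with scrambled. PLAT, tissue plasminogen activator, had 445 and 133 FPKM, against 1005 FPKM with scrambled. MMP1, an interstitial collagenase, had 8583 and 3017 FPKM, against 10733 FPKM. Of 16 receptor tyrosine kinases, DDR1 and EGFR were 2-fold higher with both (12.5%, against 0.96% of all genes) and 0 lower. The list's medians were -0.43 and -0.34. Of the 16, 8 were below scrambled with both hairpins (50%, against 29.3% of all genes) and 4 above, where 34.2% of all genes were above. EGFR had 4.64 and 5.91 FPKM, against 1.61 FPKM with scrambled. ITGA9 was the only one of 16 integrin subunits past 2-fold with both (6.25%, against 0.97% of all genes lower), at 5.51 and 5.03 FPKM, against 14.6 FPKM. BAMBI, a decoy receptor of TGF-beta, had 72.5 and 88.2 FPKM, against 186 FPKM.

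Of 10 epithelial markers, 4 were tested, and SPINT1 and LIPH stood 2-fold higher with both hairpins (50%, against 0.96% of all genes). Both were under 1 FPKM with scrambled and passed the filter only through the hairpin libraries, so nothing is read from this share. SPINT1, an inhibitor of matriptase, had 1.91 and 7.28 FPKM, against 0.375 FPKM with scrambled, and LIPH, a lipase, had 2.69 and 5.70 FPKM, against 0.682 FPKM. Of the other 2, MUC1 was given above, and ESRP1, a splicing factor, had 2.17 and 0.452 FPKM, against 1.72 FPKM. CDH1 and EPCAM, defining markers of epithelium, were at 0 to 1.62 FPKM. Among stress genes EIF2AK3 (the kinase PERK) had 141 and 112 FPKM, against 50.5 FPKM with scrambled, while GDF15, a secreted stress factor, had 79.4 and 29.7 FPKM, against 175 FPKM. ULK1, the kinase that starts autophagy, had 10.3 and 15.4 FPKM, against 4.60 FPKM. Of 28 interferon-stimulated genes, IFI44 was the only one 2-fold higher with both (3.57%, against 0.96% of all genes), at 25.1 and 26.7 FPKM, against 11.9 FPKM. Higher with ETV1-sh2 were 9 genes, IFI44 among them (32.1%, against 5.4% of all genes). IFI44 was the 1 gene higher with ETV1-sh1 (3.57%, against 2.7%).

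The remaining lists held at most 1 gene past 2-fold with both in a direction. GNG11, a G protein gamma subunit, had 118 and 116 FPKM, against 53.3 FPKM with scrambled. GFRA2, a co-receptor of neurturin, had 1.65 and 1.05 FPKM, against 5.97 FPKM. No gene passed with both among ribosomal protein, ribosome biogenesis, MHC class I, matrix, heat shock, chaperone, cholesterol, p53, oxidative phosphorylation, S100, cancer-testis, NF-kB, small RNA silencing or housekeeping genes. The ribosomal protein list split by hairpin, its median being 0.30 for ETV1-sh1 and -0.44 for ETV1-sh2. The mitochondrially encoded list had medians of 0.41 and 0.70. The part of these shifts in the other lists was not tested.

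**Figure D4:**
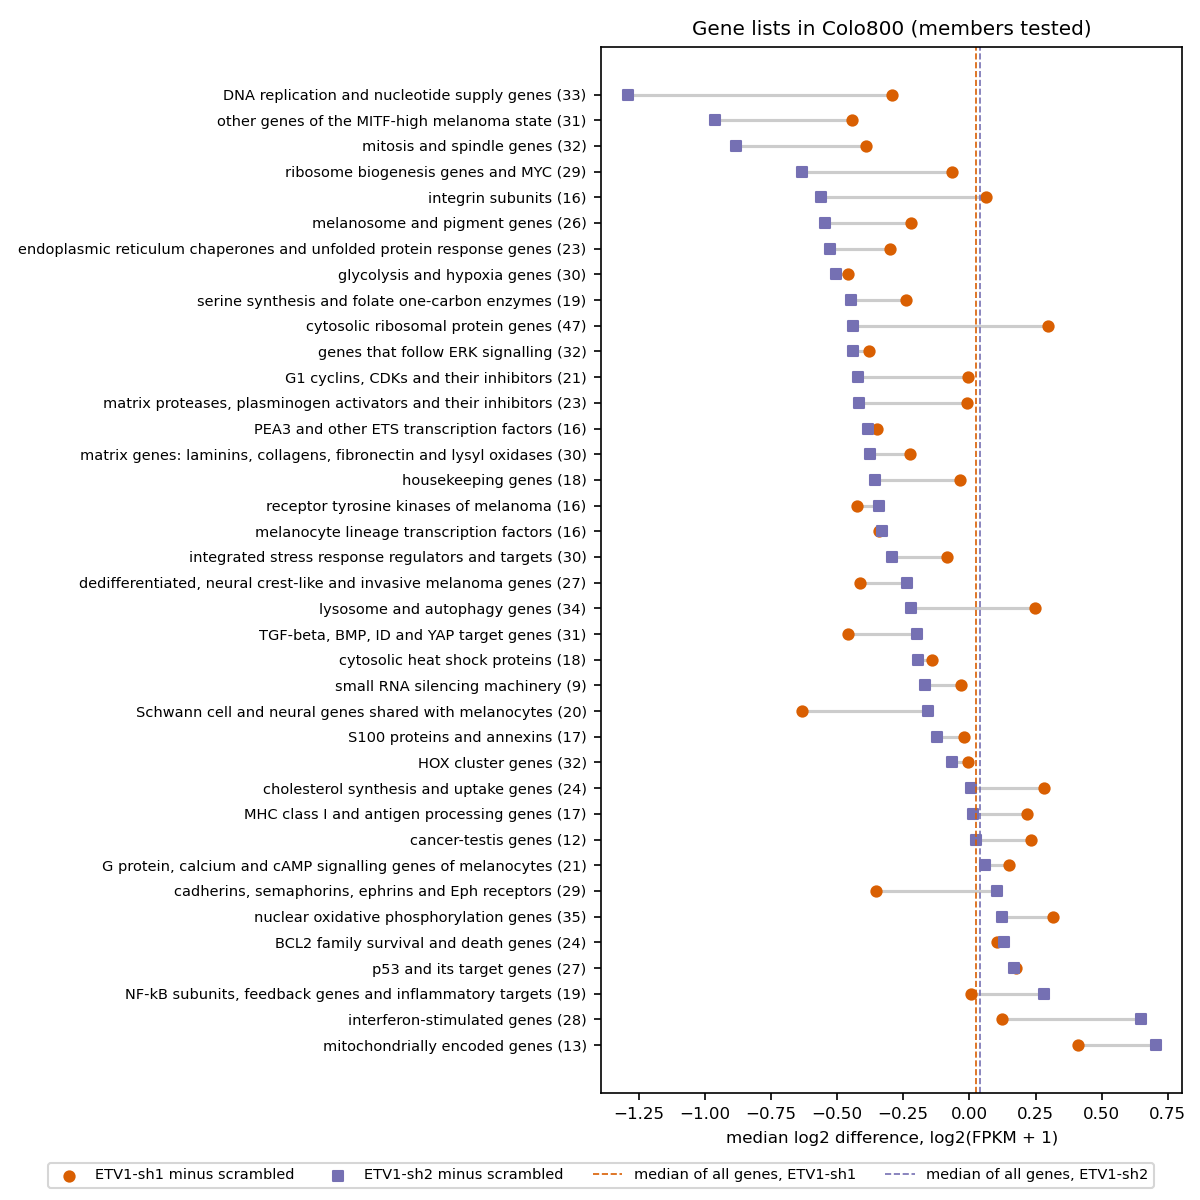
Median difference from scrambled in log2(FPKM + 1) for each gene list with at least 9 tested members, with ETV1-sh1 as circles and ETV1-sh2 as squares; the number tested is in brackets and dashed lines give the medians of all genes. DNA replication genes (-0.29 and -1.29) and the MITF-high genes (-0.45 and -0.96) lie lowest with ETV1-sh2, and mitochondrially encoded genes (0.41 and 0.70) highest.

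The following genes among the 205 were picked after their values were seen, and no group is claimed from them. HEY1 and HEY2, which are targets of Notch receptors, and RBPJ, the DNA-binding effector of those receptors, were lower with both hairpins. HEY1 had 6.93 and 3.58 FPKM, against 19.3 FPKM with scrambled, HEY2 4.22 and 1.81 FPKM, against 10.3 FPKM, and RBPJ 24.5 and 30.5 FPKM, against 67.9 FPKM. POU3F2, TBX2 and KITLG, each with a role in melanocyte development, were also lower: POU3F2 (BRN2) had 4.28 and 2.71 FPKM, against 12.6 FPKM, TBX2 had 23.5 and 22.0 FPKM, against 56.0 FPKM, and KITLG, the ligand of KIT, had 1.35 and 1.33 FPKM, against 4.19 FPKM. On the higher side, CHGB, INA and DLG4 are known from neurons. In the Schwann and neural list above, 0 of 20 genes were 2-fold higher with both and 2 were lower. Of the 20, 10 were below scrambled with both hairpins (50%, against 29.3% of all genes) and 5 above, where 34.2% of all genes were above. CHGB (chromogranin B) had 3.24 and 2.60 FPKM, against 0.408 FPKM with scrambled, INA (internexin) 27.3 and 32.3 FPKM, against 10.95 FPKM, and DLG4 (PSD-95) 26.4 and 28.2 FPKM, against 10.2 FPKM.

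As a last check the same genes were read in A375, against its own scrambled library. Of the 103 genes lower in Colo800, 76 were below scrambled with both hairpins in A375 (30.7% of all genes were) and 26 were at least 2-fold below (1.49% were). Of the 102 higher, 85 were above scrambled with both (31.4%) and 27 at least 2-fold above (0.894%). FURIN, for example, had 97.4 and 106 FPKM with the ETV1 hairpins in A375, against 30.4 FPKM with scrambled, and PSAT1 had 6.36 and 5.79 FPKM, against 30.1 FPKM. Under 1 FPKM in A375 on average were 24 of the 103 lower and 7 of the 102 higher genes, beside 5.04% of all genes. In the scrambled libraries 26 of the 103 lower and 4 of the 102 higher genes were at least 10 times higher in Colo800 than in A375, beside 3.35% of all genes. The rule picked lower genes by a high Colo800 scrambled value, so nothing is read from these shares. In the scrambled libraries MBP had 227 FPKM in Colo800 and 0.0268 FPKM in A375, PLA1A 5.72 and 0.0201 FPKM, and SLC24A5 38.6 and 0.0497 FPKM. At such levels a lower value could not be measured in A375. MYO5A, expressed in both lines, had 18.0 and 10.97 FPKM with the ETV1 hairpins in A375, against 30.2 FPKM with scrambled.

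The difference of the hairpin effect between the lines was fitted with limma over 11129 genes. No gene passed an adjusted p of 0.05 (lowest adjusted p 0.999986), and 66 genes (0.593%) had an unadjusted p under 0.05, so no gene is called particular to Colo800. The replication list had A375 medians of -0.38 and -1.06, beside -0.29 and -1.29 in Colo800. TIMP3 had 23.8 and 21.3 FPKM with the ETV1 hairpins in A375, against 424 FPKM with scrambled, and the log2 difference of its hairpin effect, Colo800 minus A375, was 2.11 (limma, adjusted p 0.999986). EFNB2, higher in Colo800, had 13.7 and 21.4 FPKM in A375, against 16.7 FPKM with scrambled.

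**Figure D5:**
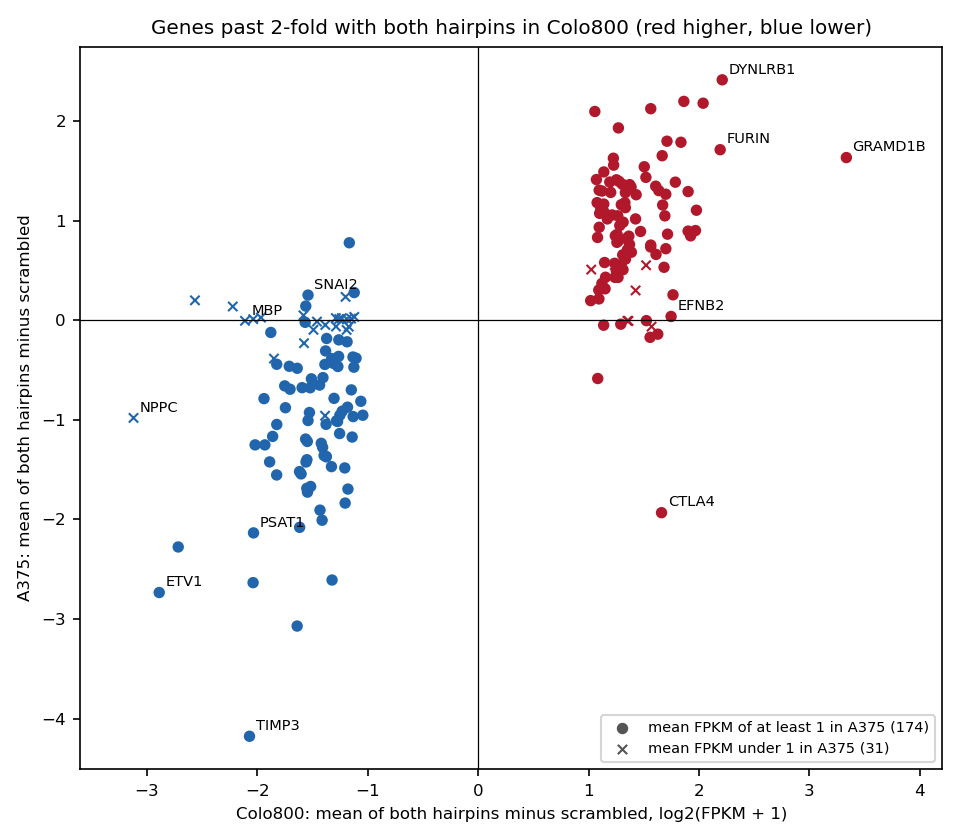
Mean of both hairpins minus scrambled in log2(FPKM + 1) for the 205 genes past 2-fold with both hairpins in Colo800, with Colo800 on the horizontal and A375 on the vertical axis; red genes were higher and blue genes lower in Colo800, and crosses mark the 31 genes with a mean under 1 FPKM in A375. TIMP3 lies lowest on the A375 axis, and CTLA4 is the red point far below 0.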

How the data were processed

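RNA sequencing covered 6 libraries: 3 hairpins in Colo800 and the same 3 in A375, 1 library each. The deposited values are FPKM, which the authors produced on hg19 using Cuffnorm, Cufflinks 2.2.1 and STAR 2.4, per the submitters' processing notes. No source used here gives the gene annotation, the strandedness or the Cuffnorm scaling. FPKM carries no absolute depth; relative depth was read from genes at 0.0001 to 0.3 FPKM in both libraries, and the commonest ratio held for 10.3% of 1842 genes (ETV1-sh1) and 10.5% of 1728 (ETV1-sh2).

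Values were used as deposited, on log2(FPKM + 1), for genes with a mean of at least 1 FPKM over the 3 libraries of a line. A gene counted as shared if each ETV1 hairpin lay at least 1 from scrambled on that scale, in the same direction. Limma 3.58.1 in R 4.3.3 (lmFit, eBayes with a variance trend, Benjamini-Hochberg adjustment over all genes tested, threshold 0.05) was fitted to both hairpins against scrambled in Colo800 (1 residual degree of freedom; the gap between hairpins is the spread, and scrambled is assumed to vary likewise) and to the difference of that effect between lines over 6 libraries (2 residual degrees of freedom). P-values measure only the spread between these libraries. In both fits that spread is the gap between ETV1-sh1 and ETV1-sh2, which differ in ETV1 level and labelled drug. Technical differences may enter it as well. The fits were tested on simulated data.

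The genes named were ETV1; the 15 per direction with the largest smaller-of-both difference; up to 6 members of each of 43 gene lists past 2-fold with both hairpins, filled to 2 by mean difference; 5 per direction for the difference between lines; and 4 per direction for the gap between hairpins. Other list members show how a list varied; they were picked with their values in view. The libraries, lists and rules were chosen with earlier results of these data known. The lists have 1118 entries, 1089 of them in the table. Promoter windows are RefSeq's on GRCh38.p14, matched by symbol; the files' hg19 coordinates were not used. Pseudocounts of 0.1 and 0.5, no filter, a mean of at least 5, folds of 1.5 and 3, median centring, no variance trend, leaving out hairpin libraries and a hairpin block were tried as alternatives. Symbols and identifiers are those of the table. PMEL, a further melanocyte marker, was not analysed here. Of the genes these rules name, 1 of the 15 higher genes and 1 marker are not reported here.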

Additional observations from a re-analysis of the deposited data

Results flagged for a closer look

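In 4 of the 205 shared genes, both hairpins stood on the other side of scrambled in A375 than in Colo800 with a mean of at least 1 FPKM there, and the difference between lines had an unadjusted p under 0.05 in limma. None passed adjustment (adjusted p 0.999986 each), and each line has 1 scrambled library. The 205 genes were chosen by their Colo800 differences, which enter the difference between lines, and these 4 by that p-value. The sizes and unadjusted p-values below are therefore those of selected genes and test nothing.

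CTLA4, an inhibitory receptor of T cells, had 15.8 FPKM with ETV1-sh1 and 7.83 FPKM with ETV1-sh2 in Colo800, against 2.85 FPKM with scrambled. In A375 it had 1.84 and 0.379 FPKM, against 6.55 FPKM with scrambled. The difference of its hairpin effect, Colo800 minus A375, was 3.59 on the log2 scale (limma, unadjusted p 0.00872).

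SNAI2 had 15.3 and 20.9 FPKM with the ETV1 hairpins in Colo800, against 54.0 FPKM with scrambled, and 2.43 and 3.61 FPKM in A375, against 2.34 FPKM with scrambled. Its difference was -1.79 (limma, unadjusted p 0.0289). SPSB1, an adaptor of ubiquitin ligases, had 14.4 and 14.0 FPKM in Colo800, against 32.1 FPKM with scrambled, and 11.01 and 8.18 FPKM in A375, against 7.66 FPKM with scrambled. Its difference was -1.40 (limma, unadjusted p 0.0463).

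PARS2, a mitochondrial prolyl-tRNA synthetase, had 1.54 and 2.76 FPKM with the ETV1 hairpins in Colo800, against 0.000303 FPKM with scrambled. In A375 it had 1.88 and 1.43 FPKM, against 1.92 FPKM with scrambled. Its difference was 1.77 (limma, unadjusted p 0.0262) and rests on that near-0 Colo800 scrambled value.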

How the results depend on the processing

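A smaller pseudocount, no filter or a lower fold can only add genes to the 205 past 2-fold with both hairpins. That all 205 were also called with a pseudocount of 0.1 or 0.5, without a filter and at 1.5-fold was therefore fixed in advance. A mean of at least 5 FPKM, which kept 157, and 3-fold, which kept 27, can only remove genes. After median centring, 189 of the 205 were called. With a pseudocount of 0.1 the count was 355, of which 218 were higher. At 1.5-fold it was 989 (521 higher, 468 lower) and at 3-fold 27 (14 higher, 13 lower). Counting 1 hairpin whatever the other did, the count ranged from 732 to 1283, with 287 to 574 higher and 445 to 709 lower, the larger values being those without ETV1-sh1. Counted so, ETV1-sh1 passed 2326 genes at 1.5-fold and 169 at 3-fold, ETV1-sh2 3541 and 281. In A375 the count was 462 with a pseudocount of 0.1, 1054 at 1.5-fold and 41 at 3-fold, beside 289. Limma within Colo800 passed 0 genes under every alternative run. The difference between lines passed 0 genes under every alternative except no filter, where 2 passed, DEFB123 and ST20, both near 0 FPKM in most libraries. With hairpin identity as a replicate block across lines it passed 0 genes, 345 having an unadjusted p under 0.05. Without ETV1-sh1 or ETV1-sh2 of either line it passed 0 as well. Among list medians and named genes, 9 of 86 and 32 of 113 values moved by more than the spread between hairpins with a pseudocount of 0.1, 4 and 19 with 0.5, and 11 and 9 after centring. No called value changed sign under these settings. The limits are 1 library per hairpin, 1 scrambled library shared by both comparisons, unknown absolute depth, and labelled drugs that go with the hairpins.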

Other observations

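With both hairpins past 2-fold in opposite directions there were 18 genes, TYR among them. Among the 102 higher genes, growth factor and cytokine receptors and ligands were also present, chosen after their values were seen. IL7R had 40.3 FPKM with ETV1-sh1 and 21.5 FPKM with ETV1-sh2, against 9.31 FPKM with scrambled. TNFRSF12A, the receptor of TWEAK, had 283 and 300 FPKM, against 117 FPKM, and GAS6, the ligand of TAM receptors, had 9.55 and 9.52 FPKM, against 3.45 FPKM. Among the lower genes, IRS1, an adaptor of the insulin receptor, had 4.55 and 4.57 FPKM, against 11.3 FPKM, and PGF, placental growth factor, had 8.76 and 7.14 FPKM, against 22.2 FPKM. Of the 102 higher genes, 61 were farther from scrambled with ETV1-sh2 than with ETV1-sh1, with SPINT1, PPP1R1C, CDC42BPG and LIPH among them. PPP1R1C, a phosphatase inhibitor, had 7.56 and 20.4 FPKM, against 3.16 FPKM with scrambled. CDC42BPG, a kinase bound by CDC42, had 2.28 and 5.70 FPKM, against 0.199 FPKM.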
